A study of Homo sapiens with 15 samples.

Results

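The genes described here are 37 factors of ribosome production and of the nucleolus, out of 62700 genes in each of the 2 count tables. They were chosen by symbol for their known part in the transcription of ribosomal RNA, its processing or the assembly of the subunits. Earlier results of these data were known when these genes and the lists of other genes used below were chosen. All 37 were found in both tables and passed the filter on low counts in both. In the nucleolus, RNA polymerase I transcribes the long precursor of ribosomal RNA. Small nucleolar RNA-protein particles (snoRNPs) then modify its bases and sugars, the small subunit processome folds and cuts the part that becomes the 40S subunit, and a further set of factors builds the 60S subunit. Growing cells spend much of their energy on this pathway, and the transcription factor MYC is a known activator of many of its genes.

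All libraries came from 143B, an established human osteosarcoma cell line, and total RNA was extracted for sequencing. Osteosarcoma stem-like cells (OSCs) were wild-type cells grown as tumorspheres, and non-OSCs were wild-type cells grown attached to plastic. Per the paper's methods, attached cells were kept in medium with fetal bovine serum. Spheres were kept in another medium with EGF and basic FGF, for which no serum is listed. Growth form and medium therefore cannot be told apart in the comparison of OSCs with non-OSCs. A separate experiment used 143B OSCs infected with lentivirus that carried a control hairpin (shCtrl) or 1 of 2 hairpins against PDK1 (shPDK1#1 and shPDK1#2). PDK1 is the mitochondrial kinase that inhibits pyruvate dehydrogenase. Each of the 5 groups held 3 libraries, and each experiment had its own table, so levels were compared only within a table. The columns of the OSC table are headed S2D and S3D, which were read as the attached non-OSCs and the sphere OSCs, and every direction between OSCs and non-OSCs rests on that reading. Nothing in the labels says that the replicates were separate cultures, so p-values measure the spread between these libraries, which may be technical. Since RNA was taken from whole cultures, fewer cells of a type and less RNA per cell cannot be told apart.

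Libraries held between 7992499 and 11256536 counts, and no 2 replicates agreed within counting error (the chi-square divided by its degrees of freedom was at least 1.94). PDK1 stood at 46.7, 44.7 and 44.4 CPM (the count scaled to a common library size, normalized by the TMM method) in the shCtrl libraries, at 29.0, 27.8 and 27.3 with shPDK1#1 and at 18.3, 21.5 and 19.6 with shPDK1#2. Its log2 fold change, given with its standard error as are all others, was -0.69 ± 0.08 with shPDK1#1 (adjusted p 7.13e-06, edgeR) and -1.19 ± 0.09 with shPDK1#2 (adjusted p 5.89e-11), so PDK1 was lower with both hairpins. Of the osteosarcoma markers, VIM, SPARC and COL1A1 were abundant in every library, RUNX2 stood at 14.4 to 38.5 CPM, and IBSP had 0 counts in every library. NKG7 had 0 counts in every library and CD3D at most 1, and the summed lymphocyte markers reached at most 0.105 CPM, endothelial markers (PECAM1, VWF) 1.85 CPM and myeloid markers (CD74, CD14) 2.68 CPM. The osteoclast markers CTSK and MMP9 summed to 27.4 to 30.3 CPM in non-OSCs and 77.2 to 80.8 CPM in OSCs, and to 51.0 to 56.1 CPM with shCtrl, 34.4 to 42.7 CPM with shPDK1#1 and 22.3 to 26.5 CPM with shPDK1#2. The pericyte markers ACTA2 and RGS5 summed to 4.24 to 5.25 CPM in non-OSCs and 20.5 to 23.7 CPM in OSCs, and to 17.8 to 22.1 CPM with shCtrl, 15.7 to 16.7 CPM with shPDK1#1 and 15.2 to 18.1 CPM with shPDK1#2, and the part of either list in the results was not tested.

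MYC and its relatives bind DNA at the E-box, the letters CACGTG, which read the same on both strands. RefSeq promoter windows of 300 bases (GRCh38.p14, 250 before the start of the gene and 50 after it) were given for 31 of the 37 genes. NOP58, NOLC1, TCOF1, RRP12, BOP1 and RRS1 had no entry. Of the 31 windows, 15 (48.4%) held an E-box, against 2396 of the 27305 windows of all genes (8.77%) and 1348 of the 10767 windows of genes tested in the OSC table (12.5%). Of 16 matches in these 15 windows, 15 lay within 70 bases of the start of the gene as RefSeq places it. The stretches below are shown for the genes that carry the changes described further on, each from the strand of its gene and with the E-box in capitals. They lie at chr12:101280083-101280112 (UTP20), chr17:4555340-4555369 (MYBBP1A), chr4:4290068-4290097 (LYAR), chr3:51941892-51941921 (RRP9), chr19:39846356-39846385 (FBL), chr16:69132621-69132650 (UTP4) and chr22:30591880-30591909 (PES1).
UTP20: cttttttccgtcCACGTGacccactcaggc
MYBBP1A: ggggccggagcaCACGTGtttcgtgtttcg
LYAR: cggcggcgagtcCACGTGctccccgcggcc
RRP9: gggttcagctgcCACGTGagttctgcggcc
FBL: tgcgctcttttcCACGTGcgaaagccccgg
UTP4: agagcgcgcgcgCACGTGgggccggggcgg
PES1: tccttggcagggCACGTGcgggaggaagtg

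The E-box in FBL lies 7 bases after the start of the gene on the minus strand of chromosome 19, and that in UTP20 lies 10 bases before the start on the plus strand of chromosome 12. NOP10 held 2 matches, 11 and 170 bases before its start. A second motif that was searched, the palindromic CGCG element, was found in NOP14 alone (3.23% of the 31 windows), against 0.505% of the windows of all genes. A match describes letters and was not tested as a binding site.

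The first comparison asked how sphere culture differs from attached culture. Ribosome production genes were lower in OSCs throughout the pathway. Of the 37 genes, 36 were lower in OSCs at an adjusted p under 0.05 and 0 were higher, where 31.5% of the 14287 genes tested were lower and 32.4% higher. At an unadjusted p under 0.05 the count higher was also 0, and with DESeq2 it was 0. Calls come from the quasi-likelihood test of edgeR, adjusted by Benjamini-Hochberg over all genes tested. The median log2 fold change was -0.85, against -0.01 over all genes tested. In 35 genes every OSC library lay below every non-OSC library, which held for 33% of all genes tested. The summed level of the 37 genes was 8275 to 8534 CPM in the non-OSC libraries and 4524 to 4552 CPM in the OSC libraries, so the OSC mean was 53.7% of the non-OSC mean. NCL and NPM1 supplied 43.8% to 47.4% of this sum in these 6 libraries, and the summed level of the other 35 genes was 4479 to 4585 CPM in non-OSCs and 2512 to 2541 CPM in OSCs.

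**Figure D1:**
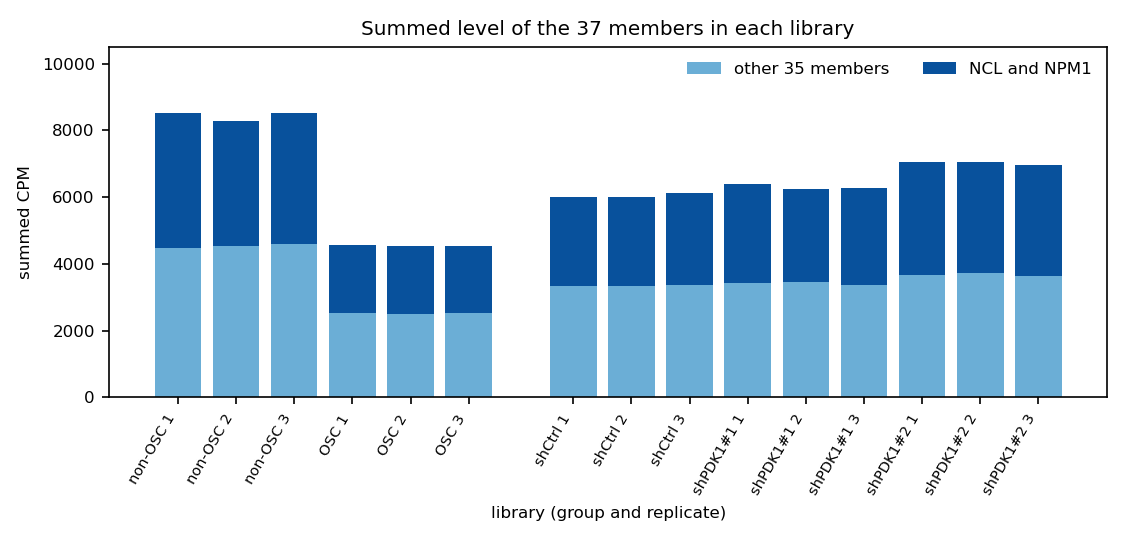
Summed CPM (vertical axis) of the 37 genes in each of the 15 libraries, with NCL and NPM1 drawn in dark blue on top of the other 35. The 3 OSC bars reach 4524 to 4552 CPM, the 3 non-OSC bars 8275 to 8534 CPM, and the bars of the shPDK1#2 libraries (6978 to 7047 CPM) stand above those of shCtrl (6012 to 6115 CPM).

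All 6 genes of the nucleolar set, among them the most read of the 37, were lower in OSCs. NCL (nucleolin, chr2:231453531-231483641), an RNA-binding protein of the nucleolus, stood at 2178, 2071 and 2171 CPM in non-OSCs and at 1107, 1093 and 1094 CPM in OSCs. The groups did not overlap, and the log2 fold change was -0.96 ± 0.03 (adjusted p 6.43e-16). NPM1 (nucleophosmin, chr5:171387116-171411810), a chaperone of nucleolar proteins and histones, fell from 1863, 1672 and 1779 CPM to 929.6, 932 and 889 CPM, a log2 fold change of -0.95 ± 0.04 (adjusted p 1.06e-14), and its groups did not overlap either. NPM1 shares 5.26% of its 75-base stretches with other genes, and its 49 pseudogenes held 0.449% to 0.716% of its counts. The other 4 genes of this set were lower too, by log2 fold changes that spread widely. LYAR, a nucleolar zinc finger protein, ranged from 61.2 to 68.3 CPM in non-OSCs and from 26.2 to 27.7 CPM in OSCs (-1.26 ± 0.08). NOLC1, a snoRNP chaperone, ranged from 222 to 233 CPM and from 123 to 133 CPM (-0.85 ± 0.05). Values for the RNA helicase DDX21 were 364 to 389.9 CPM and 219.9 to 237 CPM (-0.72 ± 0.05), and those for the GTPase GNL3 (nucleostemin) were 86.3 to 96.2 CPM and 68.1 to 78.0 CPM (-0.31 ± 0.07), the smallest change of the 6.

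Box C/D snoRNPs place methyl groups on ribosomal RNA, and all 3 of their proteins among the 37 genes were lower in OSCs. FBL (fibrillarin, chr19:39834458-39846379), the methyltransferase, stood at 184, 178 and 187 CPM in non-OSCs and 107, 110.2 and 100.1 CPM in OSCs, with a log2 fold change of -0.79 ± 0.06 (adjusted p 4.33e-11). The scaffold protein NOP56 (chr20:2652593-2658393) stood at 184, 188 and 192 CPM and 99.2, 102 and 105 CPM, a change of -0.88 ± 0.05 (adjusted p 4.16e-12). Its partner NOP58 (chr2:202265736-202303661) stood at 142, 133 and 133 CPM and 97.5, 91.1 and 87.9 CPM, a change of -0.56 ± 0.06 (adjusted p 3.86e-08), the smallest of the 3. In none of the 3 genes did the libraries of the groups overlap.

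Box H/ACA snoRNPs turn uridine into pseudouridine, and their 4 proteins were all lower in OSCs. DKC1 (dyskerin, chrX:154762742-154777689), the pseudouridine synthase, stood at 226, 212 and 223 CPM in non-OSCs and at 117, 110.2 and 118 CPM in OSCs. Its groups did not overlap and its log2 fold change was -0.94 ± 0.05 (adjusted p 1.32e-12). Its partner NHP2 ranged from 216 to 227 CPM in non-OSCs and from 139 to 143 CPM in OSCs (-0.65 ± 0.05). NOP10 ranged from 97.5 to 101 CPM and from 65.3 to 74.1 CPM (-0.54 ± 0.07). GAR1 ranged from 39.0 to 46.6 CPM and from 27.1 to 31.8 CPM (-0.54 ± 0.09), so DKC1 had the largest fall of the 4. The strand of the libraries is not given in the sources used here, and 28% of the exon bases of NHP2 lie opposite exons of RMND5B, so reads of these genes may be mixed.

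All 7 genes of RNA polymerase I transcription were called lower, over a wide range of sizes. POLR1A (chr2:86020216-86106155), the large catalytic subunit, stood at 158, 162 and 161 CPM in non-OSCs and 79.8, 80.3 and 77.3 CPM in OSCs, with no overlap and a log2 fold change of -1.02 ± 0.06 (adjusted p 7.23e-13). UBTF (chr17:44205033-44221626), which binds the ribosomal DNA repeats, stood at 114, 128 and 124 CPM and 90.1, 94.4 and 92.1 CPM, also apart, with a smaller change of -0.40 ± 0.06 (adjusted p 6.32e-06). MYBBP1A (chr17:4538897-4555386), a nucleolar MYB-binding protein, fell from 312, 341 and 331 CPM to 120.4, 132 and 133 CPM, the largest change of this set at -1.35 ± 0.05 (adjusted p 3.24e-15). TCOF1 (treacle), a nucleolar scaffold for the polymerase, ranged from 346 to 367 CPM in non-OSCs and from 146 to 154 CPM in OSCs (-1.25 ± 0.05). The second large subunit, POLR1B, ranged from 92.0 to 102 CPM and from 47.8 to 56.3 CPM (-0.90 ± 0.07). The initiation factor RRN3 ranged from 58.2 to 63.9 CPM and from 50 to 51.8 CPM (-0.25 ± 0.07), a small change, and 21.4% of its 75-base stretches also occur in other genes, its pseudogenes among them. POLR1C, a subunit shared with RNA polymerase III, stood at 33.1, 34.8 and 37.2 CPM and 27.1, 28.7 and 33.8 CPM, so its groups overlapped. Of its exon bases, 18.3% lie opposite other genes. Its change of -0.23 ± 0.10 (adjusted p 0.0461) missed the threshold with DESeq2, with library sizes alone, with no filter on low counts, and without non-OSC replicate 2, non-OSC replicate 3, OSC replicate 1 or OSC replicate 2, where it lay between -0.24 and -0.16.

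The small subunit processome held both the largest fall and the lone gene that was not called. UTP20 (chr12:101280105-101386618), a processome scaffold protein, stood at 108, 92.3 and 107 CPM in non-OSCs and at 31.7, 36.0 and 32.3 CPM in OSCs. The groups lay far apart, with a log2 fold change of -1.62 ± 0.08 (adjusted p 1.51e-13). DDX10 (chr11:108665058-108940999), an RNA helicase of the same stage, stood at 63.3, 59.8 and 55.6 CPM and 63.3, 60.2 and 56.4 CPM, so its groups overlapped, and its change was 0.01 ± 0.08 (adjusted p 0.93). The other 7 genes of this stage were lower, with no overlap in any of them. The U3 snoRNP protein RRP9 ranged from 44.6 to 50 CPM in non-OSCs and from 19.2 to 22.9 CPM in OSCs (-1.19 ± 0.10). The proteins UTP15, UTP4 and WDR43 belong to the UTP-A complex, which binds the precursor early. UTP15 ranged from 33.1 to 39.2 CPM and from 16.0 to 19.5 CPM (-1.0 ± 0.11), UTP4 from 93.6 to 97.9 CPM and from 51.5 to 54.8 CPM (-0.85 ± 0.07), and WDR43 from 112 to 118 CPM and from 64.4 to 68.1 CPM (-0.81 ± 0.06). NOP14, BYSL and RRP12 act in 40S production, and NOP14 ranged from 88.9 to 97.6 CPM and from 52.2 to 54.8 CPM (-0.81 ± 0.07). BYSL ranged from 66.5 to 76.1 CPM and from 36.8 to 40.3 CPM (-0.87 ± 0.08), and RRP12 from 75.6 to 82.5 CPM and from 52.5 to 54.9 CPM (-0.57 ± 0.07), the smallest fall of the 7. Of the exon bases of NOP14, 20.7% lie opposite NOP14-AS1.

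All 8 genes of 60S assembly were lower in OSCs. RRS1, which helps to bring the 5S particle into the subunit, stood at 102, 121 and 118 CPM in non-OSCs and 40.8, 39.9 and 43.5 CPM in OSCs, with no overlap and a log2 fold change of -1.46 ± 0.08 (adjusted p 3.14e-13). BOP1, PES1 and WDR12 form the PeBoW complex, and BOP1 ranged from 181 to 215 CPM in non-OSCs and from 85.8 to 88.6 CPM in OSCs (-1.20 ± 0.06). Its partners fell by less. PES1 ranged from 139.9 to 153 CPM and from 99.7 to 100.4 CPM (-0.56 ± 0.06), and WDR12 from 83.8 to 89.7 CPM and from 53.0 to 57.0 CPM (-0.66 ± 0.07). The rRNA methyltransferase NOP2 ranged from 113 to 123 CPM and from 49.4 to 61.1 CPM (-1.06 ± 0.07), and the assembly factor NOP16 from 48.0 to 56.4 CPM and from 24.3 to 26.5 CPM (-1.08 ± 0.09). RRP1, which acts early on the 60S precursor, ranged from 57.7 to 64.8 CPM and from 35 to 37.4 CPM (-0.72 ± 0.08). WDR74 ranged from 40.7 to 43.4 CPM and from 27.5 to 36.7 CPM (-0.35 ± 0.10), the smallest fall of the 8, and 14.1% of its 75-base stretches also occur in other genes. NOP2 shares 54.4% of its exon bases with an overlapping gene on the same strand (ENSG00000285238), 18.6% of the exon bases of NOP16 lie opposite other genes, and 11% of those of RRS1 overlap a gene on the same strand (ENSG00000285655).

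**Figure D2:**
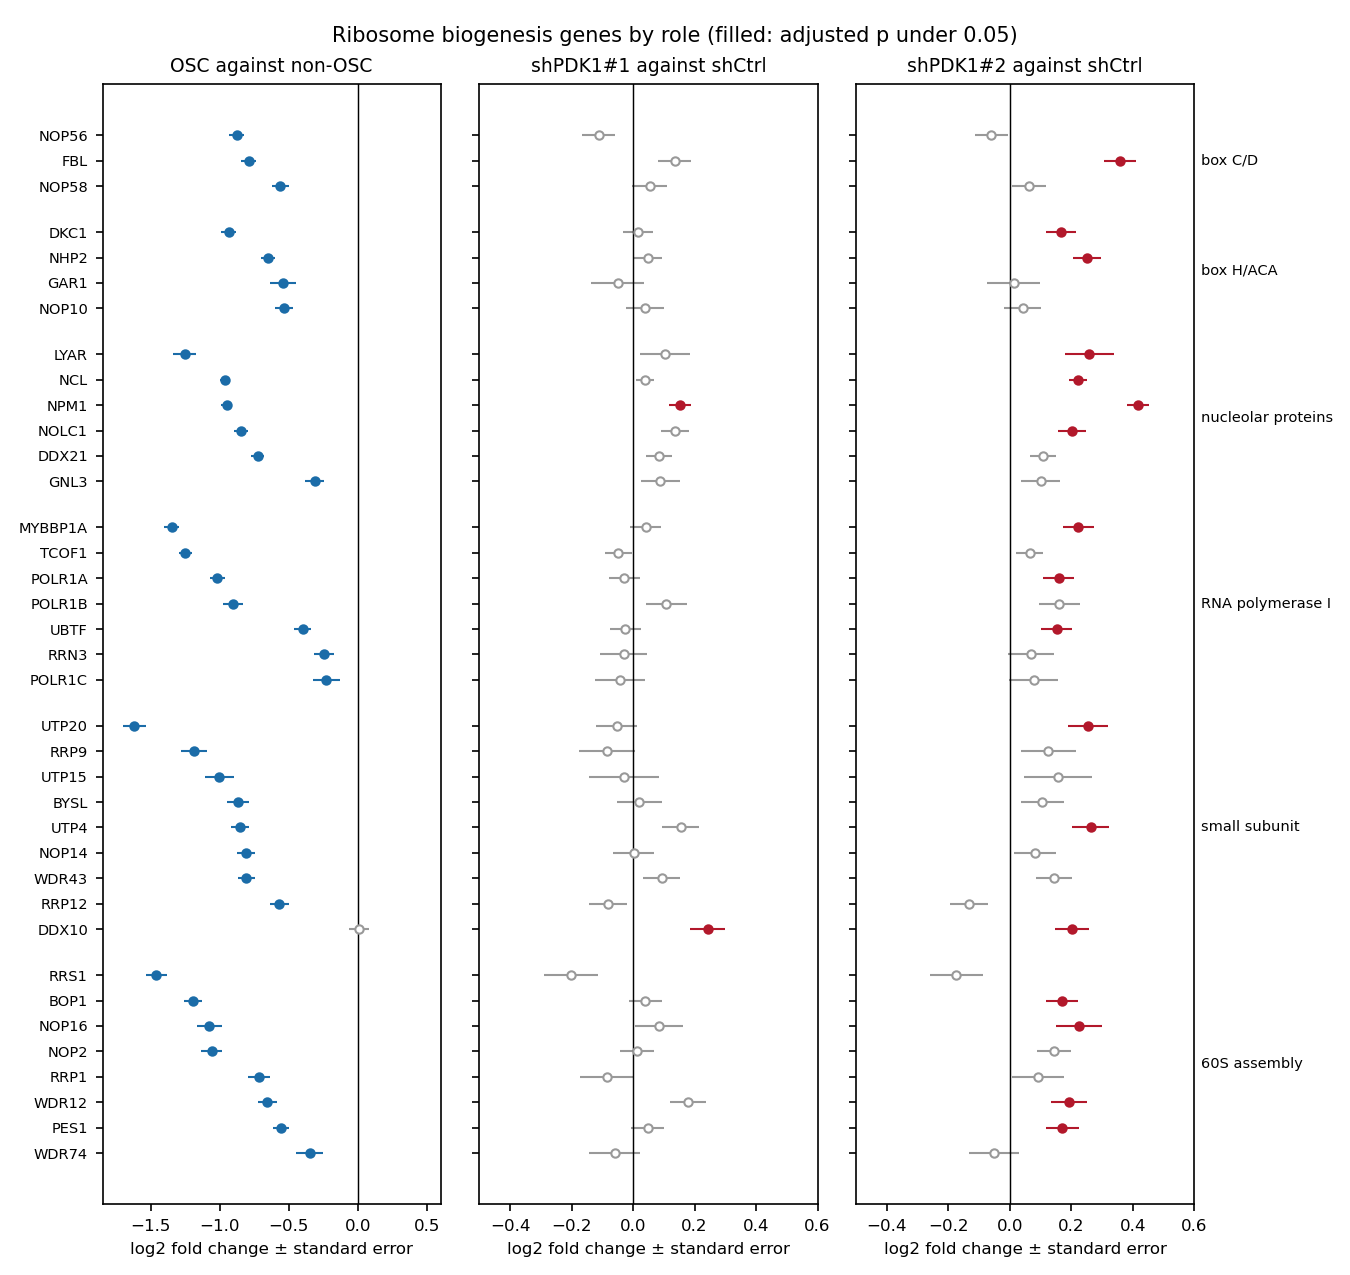
Log2 fold change (horizontal axis) with its standard error for each of the 37 genes, ordered by role, in OSCs against non-OSCs and with each hairpin against shCtrl (the first panel has a wider axis). Filled points passed an adjusted p of 0.05 in edgeR, blue for lower and red for higher: 36 blue points in the first panel, 2 red points with shPDK1#1 and 17 red points with shPDK1#2.

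Inside 7 of the 37 genes, NOP56, NOP58, DKC1, NCL, GNL3, POLR1C and WDR43, the annotation places 24 snoRNA genes on the same strand. The median log2 value of these 7 was -0.81 in the OSC comparison, and that of the other 30 genes was -0.85. The genes with an E-box in the promoter window had a median of -0.81 (15 genes) and those without it -0.80 (16 genes). Among all tested genes with a window, 14.4% of those called lower, 11% of those called higher and 12.1% of those not called held an E-box.

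Genes of the same pathway outside the 37 were mostly lower in OSCs as well. Of 45 other genes of the small subunit processome and 40S assembly, 39 were lower and 0 higher, with the largest fall in NOL6 (-1.39). Of 53 other genes of 60S assembly, 49 were lower, led by NOL12 (-1.47), and 2 were higher, namely EFL1 (0.69), a GTPase that releases EIF6 from the 60S subunit, and ZNF622 (0.41), which acts at the same late cytoplasmic stage and was named after its value was seen. Of 10 other polymerase I genes 9 were lower (largest fall POLR1G, -1.52), and of 10 snoRNP assembly factors 8 were lower (ZNHIT6, -1.07). In the RNA exosome, which trims the precursor, 11 of 14 genes were lower (EXOSC2, -1.13) and the nuclease DIS3 was higher (0.26). Proliferation markers moved with these genes. Of 14 markers 12 were lower and 0 higher, the largest fall being that of the replication helicase subunit MCM3 (-1.36), and their sum was 3560 to 3646 CPM in non-OSCs against 2243 to 2278 CPM in OSCs. Their part in the result was not tested.

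In the network of MYC, whose members compete for the partner MAX and for E-boxes, the levels of MYC itself did not separate the groups. MYC stood at 11.4, 13.9 and 16.5 CPM in non-OSCs and 9.73, 14.4 and 11.8 CPM in OSCs, with a log2 fold change of -0.20 ± 0.16 (adjusted p 0.286), and MAX had a value of -0.06 ± 0.07 (adjusted p 0.463). Of the 11 network genes tested, 6 were higher in OSCs and 2 were lower, where 32.4% of all genes tested were higher and 31.5% lower. The largest rise was in MXD4, a repressor that pairs with MAX, at 11.9, 12.1 and 10.1 CPM in non-OSCs and 68.0, 76.5 and 76.5 CPM in OSCs (2.69 ± 0.10, adjusted p 7.79e-16). The other 5, named after their values were seen, were MXI1 (1.99), MXD1 (1.93), MNT (1.60), MXD3 (0.56) and MLXIP (0.48). MLX (-0.37) and MGA (-0.33) were lower, and MYCN was too low to be tested.

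**Figure D3:**
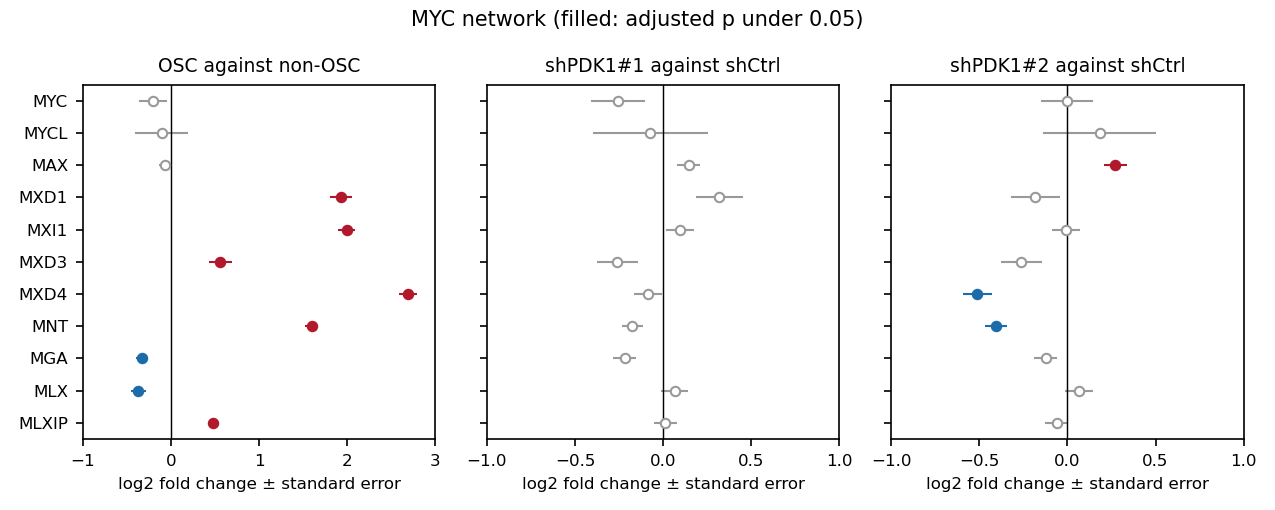
Log2 fold change (horizontal axis) with its standard error for the 11 tested genes of the MYC network in the 3 comparisons with a control (the first panel has a wider axis). Filled points passed an adjusted p of 0.05 in edgeR: MXD4, MXI1, MXD1, MNT, MXD3 and MLXIP are red (higher) in OSCs, and MXD4 and MNT are blue (lower) with shPDK1#2.

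The next comparison asked what the weaker hairpin, shPDK1#1, did to these genes in spheres. Few of them moved. Of the 37 genes, 2 were higher than with shCtrl and 0 were lower, where 1.62% of the 14574 genes tested were higher and 1.44% lower, and the median log2 fold change was 0.04. In 6 genes every shPDK1#1 library lay above every shCtrl library and in 1 below, which held for 9.77% and 9.52% of all genes tested. At an unadjusted p under 0.05, 6 genes were higher and 2 lower, where 7.44% of all genes tested were higher and 7.02% lower, and DESeq2 called 2 higher and 0 lower. NPM1 stood at 1113, 1127 and 1164 CPM with shCtrl and 1302, 1198 and 1286 CPM with shPDK1#1, with no overlap and a log2 fold change of 0.15 ± 0.04 (adjusted p 0.0127). DDX10 stood at 77.1, 74.1 and 80.1 CPM and 91.4, 91.2 and 90.8 CPM, also apart, with a change of 0.24 ± 0.06 (adjusted p 0.0132). Both calls were lost when single libraries were left out. Neither gene passed without shCtrl replicate 1, shCtrl replicate 2 or shPDK1#1 replicate 3, and NPM1 also missed without shPDK1#1 replicate 1, with changes of 0.13 to 0.15 (NPM1) and 0.21 to 0.24 (DDX10). RRS1 had the largest value below 0, -0.20 ± 0.09 (adjusted p 0.264), and was called lower, at -0.33, without shPDK1#1 replicate 2.

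Of the 37, no gene but NPM1 and DDX10 passed with shPDK1#1. NCL stood at 1646, 1585 and 1598 CPM (0.04 ± 0.03, adjusted p 0.608), FBL at 132, 135 and 119 CPM (0.14 ± 0.05, adjusted p 0.213) and DKC1 at 172, 157 and 161 CPM (0.01 ± 0.05, adjusted p 0.94). Of these, only NCL lay above shCtrl in every library. NOP56 stood at 143, 142 and 127 CPM (-0.11 ± 0.05, adjusted p 0.333) and NOP58 at 122, 109.8 and 116 CPM (0.05 ± 0.06, adjusted p 0.736). POLR1A stood at 109, 119 and 113 CPM (-0.03 ± 0.05, adjusted p 0.871) and UBTF at 122, 122 and 125 CPM (-0.02 ± 0.05, adjusted p 0.888), all 4 with overlap. In the pathway lists, UTP14A (0.22) of the 45 small subunit genes and BRIX1 (0.25) of the 53 genes of 60S assembly were higher, and no other gene of the 7 lists passed. The summed level of the 37 genes was 6012 to 6115 CPM with shCtrl and 6238 to 6381 CPM with shPDK1#1, a mean of 104% of shCtrl, and these sums did not overlap.

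With shPDK1#2, the stronger hairpin, the genes of ribosome production that moved were higher. Of the 37 genes, 17 were higher than with shCtrl and 0 were lower, where 12% of all genes tested were higher and 14.2% lower. The median log2 fold change was 0.15, against 0.01 over all genes, and 33 of the 37 values lay above 0. In 23 genes every shPDK1#2 library lay above every shCtrl library, which held for 19.5% of all genes tested. RRP12 alone had every shPDK1#2 library below every shCtrl library, which held for 20% of all genes tested, and its value was -0.13 ± 0.06 (adjusted p 0.11). At an unadjusted p under 0.05, 21 genes were higher and 1 lower, where 17.6% of all genes tested were higher and 18.6% lower, and DESeq2 called 16 higher and 0 lower. Summed levels were 6978 to 7047 CPM, a mean of 116% of shCtrl. By role, the genes called higher were 4 of 6 nucleolar proteins, 1 of 3 box C/D proteins, 2 of 4 box H/ACA proteins, 3 of 7 genes of polymerase I transcription, 3 of 9 of the small subunit processome and 4 of 8 of 60S assembly. Of the 15 genes with an E-box 6 were higher (median 0.14), and of the 16 without it 9 were higher (median 0.16). Among all tested genes with a window, 13.7% of those called higher, 11.6% of those called lower and 12.4% of those not called held an E-box.

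NPM1 showed the largest rise, from 1113, 1127 and 1164 CPM with shCtrl to 1567, 1473 and 1505 CPM with shPDK1#2, a log2 fold change of 0.42 ± 0.04 (adjusted p 1.26e-09). FBL rose from 114, 121 and 115 CPM to 150.4, 150.4 and 148 CPM (0.36 ± 0.05, adjusted p 8.36e-06), and the processome protein UTP4 (chr16:69131291-69231130) from 67.3, 71.4 and 68.6 CPM to 85.3, 83.4 and 80 CPM (0.26 ± 0.06, adjusted p 0.00151). NCL rose from 1567, 1552 and 1581 CPM to 1809.5, 1839 and 1828 CPM (0.22 ± 0.03, adjusted p 2.33e-06). In each of these 4 genes the groups lay apart. DKC1 stood at 161, 156 and 168 CPM with shCtrl and 187, 177 and 179.7 CPM with shPDK1#2 (0.16 ± 0.05, adjusted p 0.0124), POLR1A at 113, 119 and 115 CPM and 130.2, 128 and 129 CPM (0.16 ± 0.05, adjusted p 0.0199), and UBTF at 127, 123 and 126 CPM and 139, 147 and 132 CPM (0.15 ± 0.05, adjusted p 0.0256), each apart. FBL's box C/D partners among the 37 genes, NOP56 and NOP58, did not pass. NOP56 stood at 142, 148 and 155 CPM and 139, 147 and 140.4 CPM (-0.06 ± 0.05, adjusted p 0.451), and NOP58 at 119, 105 and 111 CPM and 116, 114 and 119.6 CPM (0.06 ± 0.06, adjusted p 0.461), both with overlap.

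Of the other 10 genes called higher with shPDK1#2, LYAR ranged from 36.8 to 41.4 CPM with shCtrl and from 44.2 to 50.9 CPM with shPDK1#2 (0.26), UTP20 from 60 to 70.5 CPM and from 75.3 to 79.7 CPM (0.25), and NHP2 from 185 to 194 CPM and from 219 to 229.6 CPM (0.25). Log2 fold changes of the remaining 7 were 0.20 (NOLC1), 0.22 (MYBBP1A), 0.20 (DDX10), 0.17 (BOP1), 0.17 (PES1), 0.19 (WDR12) and 0.22 (NOP16), so all 3 PeBoW genes were among those called. The 20 that did not pass lay between -0.17 (RRS1) and 0.16 (POLR1B). NPM1, FBL, UTP4, NCL, NHP2, NOLC1, MYBBP1A and UTP20 passed in every alternative that was run, leaving out each library included. The other 9 lost the call without some library. DKC1 (0.14) and LYAR (0.20 to 0.21) lost it without shCtrl replicate 2 or shPDK1#2 replicate 1, and DDX10 (0.17) without shCtrl replicate 2 or shPDK1#2 replicate 3. POLR1A (0.14 to 0.16) lost it without shCtrl replicate 1 or 3 or shPDK1#2 replicate 1 or 3, and WDR12 (0.18 to 0.19) without shCtrl replicate 1 or 2 or shPDK1#2 replicate 1 or 3. BOP1 (0.14 to 0.16) lost it without shCtrl replicate 1 or 3 or shPDK1#2 replicate 2, and PES1 (0.14 to 0.16) without any of these 3 or shPDK1#2 replicate 3. UBTF (0.11 to 0.16) lost it without any shCtrl replicate or shPDK1#2 replicate 1 or 2. NOP16 (0.19 to 0.24) lost it without shCtrl replicate 2 or 3 or any shPDK1#2 replicate, with DESeq2 and with no filter on low counts. As a count, 11 of the 37 were higher without shCtrl replicate 2 or without shPDK1#2 replicate 1.

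**Figure D4:**
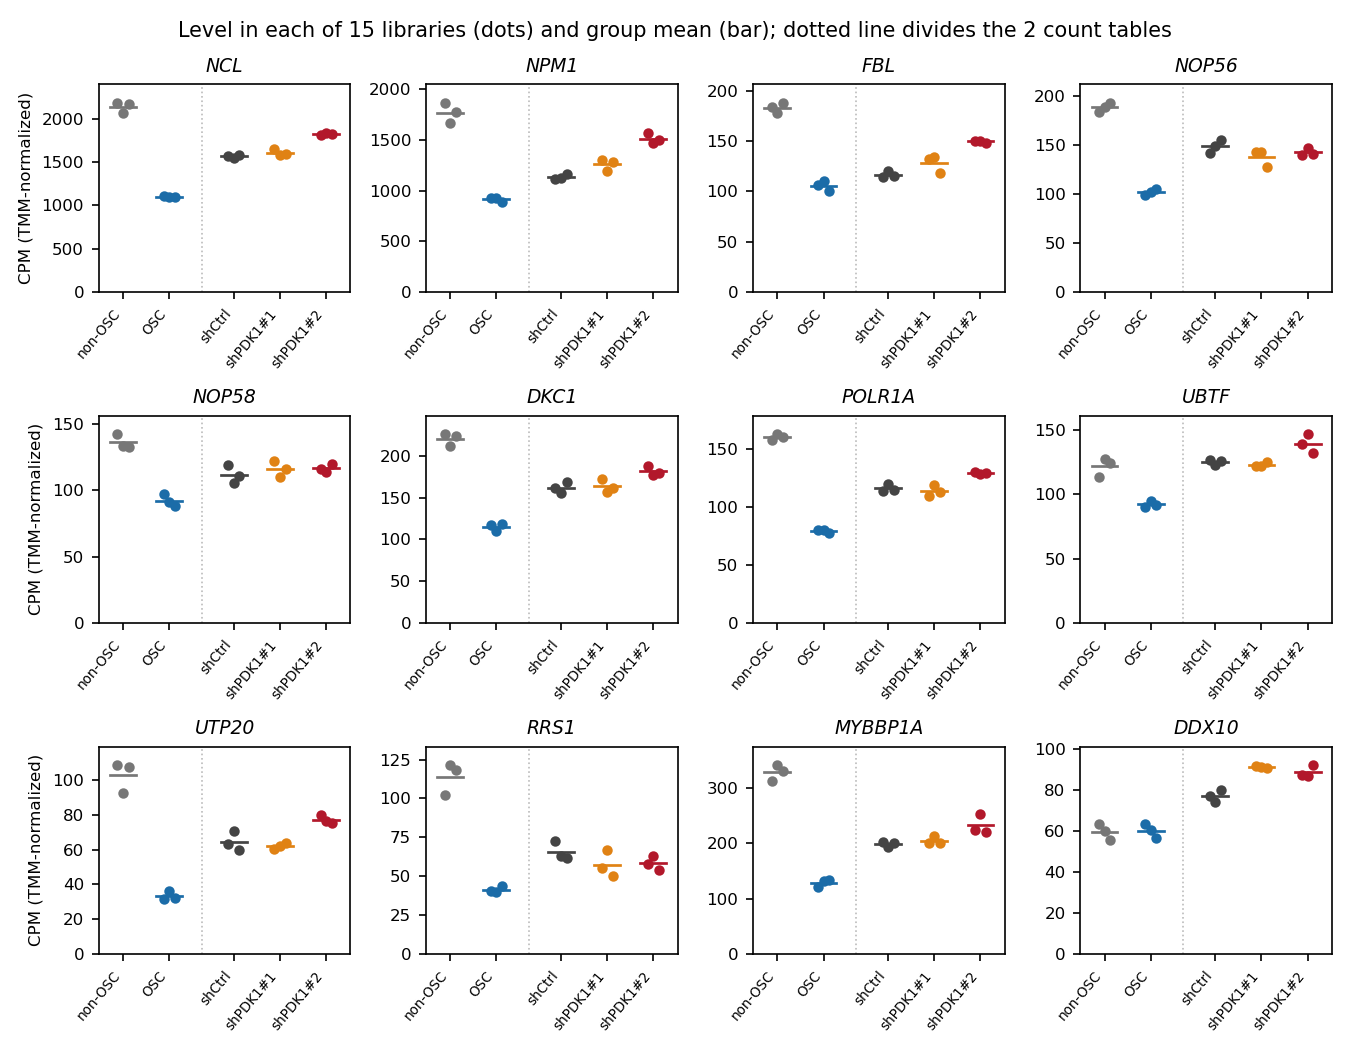
Level in CPM (vertical axis, starting at 0) of 12 of the genes in each library (dots) with the group mean (bar), where the dotted line divides the OSC table from the shRNA table. NCL, NPM1, FBL and UTP20 are lower in the 3 OSC libraries than in the 3 non-OSC libraries and higher with shPDK1#2 than with shCtrl, while DDX10 is level between OSCs and non-OSCs.

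In the lists of other ribosome production genes, more genes were higher than lower with shPDK1#2, though some were lower. Of all genes tested in this comparison, 12% were higher and 14.2% lower. Of the 45 small subunit genes 16 were higher (largest rise WDR3, 0.36) and 2 lower (PNO1, -0.60, was the larger fall), and of the 53 genes of 60S assembly 19 were higher (BRIX1, 0.43) and 3 lower (EFL1, -0.34). In the remaining lists, 2 of 10 polymerase I genes (POLR1E, 0.30) and 2 of 10 snoRNP assembly factors (SNU13, 0.28) were higher, as were 3 of 14 exosome genes (EXOSC3, 0.39), while DIS3 was lower (-0.33). MYC mRNA stood at 9.65, 10.2 and 12.3 CPM with shCtrl and 9.50, 11.7 and 10.8 CPM with shPDK1#2 (adjusted p 0.993). The paper reports less c-MYC protein in OSCs after PDK1 knockdown, and protein was not analysed here. MAX was higher (0.27), and MXD4 (-0.51) and MNT (-0.40, named after its value was seen) were lower. Of the 14 proliferation markers 7 were higher, led by MCM2 (0.58), and 2 were lower, PLK1 (-0.18) and MKI67 (-0.14), and their sum was 3075 to 3102 CPM with shCtrl and 3249 to 3287 CPM with shPDK1#2. Their part in the result was not tested.

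The hairpins were also compared with each other. Of the 37 genes, 9 were higher with shPDK1#2 than with shPDK1#1 and 0 were lower, where 6.5% of all genes tested were higher and 9.78% lower. At an unadjusted p under 0.05, 15 were higher and 0 lower, where 12.6% of all genes tested were higher and 15.7% lower, and DESeq2 called 9 higher and 0 lower. UTP20 levels in the shPDK1#1 libraries were 60.5, 62.3 and 64.0 CPM, and those in the shPDK1#2 libraries were 79.7, 76.3 and 75.3 CPM, with no overlap and a log2 difference of 0.31 ± 0.07 (adjusted p 0.00132). NPM1 differed by 0.26 ± 0.04 (adjusted p 4.9e-06) and FBL by 0.22 ± 0.05 (adjusted p 0.00326). The other 6 were NHP2 (0.20), POLR1A (0.19), NCL (0.18), MYBBP1A (0.18), UBTF (0.18) and DKC1 (0.15). POLR1A (0.16) missed the threshold without shPDK1#1 replicate 1, UBTF (0.14) without shPDK1#2 replicate 2, MYBBP1A (0.12 to 0.17) without shPDK1#1 replicate 3 or shPDK1#2 replicate 2, and DKC1 (0.12 to 0.16) without shPDK1#1 replicate 2 or 3 or shPDK1#2 replicate 1 or 3. Mean levels were ordered shCtrl, shPDK1#1, shPDK1#2 from low to high in 21 of the 37 genes (56.8%), an order found in 26% of all genes tested. In 11 (29.7%) the order was shPDK1#1, shCtrl, shPDK1#2, found in 14.8% of all genes tested. The remaining 5 had other orders.

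Ratios of reads between partners were taken in each library for 8 pairs of genes. Over the 4 comparisons 12 of 32 ratios had groups that did not overlap and 20 overlapped. By comparison, 4 of 8 were apart in OSCs against non-OSCs, 4 with shPDK1#1, 3 with shPDK1#2 and 1 between the hairpins, where 66.9%, 19.3%, 39.5% and 30.7% of single genes tested were apart in either direction. The ratio of FBL to NOP56 reads was 0.744 to 0.814 in the shCtrl libraries, 0.927 to 0.946 with shPDK1#1 and 1.02 to 1.08 with shPDK1#2, so the 3 groups did not overlap. The ratio of NPM1 to NCL was 0.710 to 0.736 with shCtrl, 0.756 to 0.805 with shPDK1#1 and 0.801 to 0.866 with shPDK1#2, where only shCtrl lay apart. FBL to NOP56 (0.945 to 1.0 in non-OSCs, 0.952 to 1.08 in OSCs) and NPM1 to NCL (0.807 to 0.855 and 0.812 to 0.853) overlapped between the cultures, as did NHP2 to GAR1 and POLR1A to POLR1B. In OSCs the ratio of PES1 to BOP1 was 1.12 to 1.17, above its range of 0.711 to 0.772 in non-OSCs, and that of WDR12 to BOP1 was 0.598 to 0.657 against 0.398 to 0.495. NOP58 to NOP56 was 0.836 to 0.983 in OSCs and 0.692 to 0.773 in non-OSCs, and DKC1 to GAR1 was lower in OSCs (3.68 to 4.37 against 4.84 to 5.72). With the hairpins, PES1 to BOP1 overlapped shCtrl in both cases. These ratios are of reads, not corrected for gene length. They are given as descriptions with no test, since an exact two-sided permutation test of a single value cannot give a p below 0.1 with 3 libraries against 3.

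**Figure D5:**
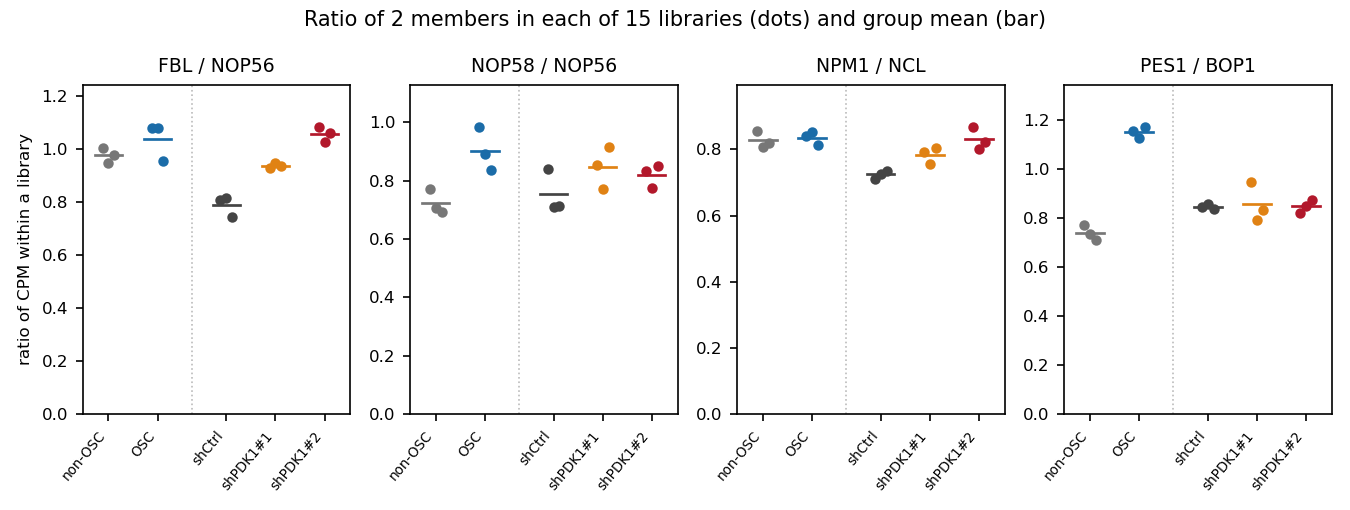
Ratio of the CPM of 2 genes within each library (vertical axis, starting at 0), with dots for libraries and bars for group means, for 4 pairs that work in the same particle or compartment. FBL to NOP56 is at most 0.814 with shCtrl and at least 1.02 with shPDK1#2, and PES1 to BOP1 is 1.12 or more in OSCs and 0.772 or less in non-OSCs.

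The culture and hairpin comparisons share no libraries, so their calls were set side by side. Of the 36 genes lower in OSCs, 16 (44.4%) were higher with shPDK1#2 and 0 were lower, close to the 17 of 37 (45.9%) that were higher among all of them. These 16 were 94.1% of the 17, close to the 36 of 37 (97.3%) that were lower in OSCs, so the overlap among the 37 shows no more than each comparison's own count. DDX10 was the remaining gene of the 17. Over all genes tested in both tables, 1048 of the 4418 genes lower in OSCs (23.7%) were higher with shPDK1#2 and 270 (6.11%) were lower. Counted the other way, 1048 of the 1694 genes higher with shPDK1#2 (61.9%) were lower in OSCs. With shPDK1#1, NPM1 was the lone gene of the 36 (2.78%) that was higher, where 81 of the 4418 genes (1.83%) were.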

How the data were processed

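RNA was sequenced from 15 libraries of 143B cells, 3 in each of 5 groups (non-OSC, OSC, shCtrl, shPDK1#1 and shPDK1#2), and 0 columns of values were left unmapped. Columns headed S2D were read as attached culture (non-OSC) and those headed S3D as sphere culture (OSC). Per the submitters' processing notes, the tools were Trimmomatic 0.39, FastQC 0.12.1, STAR 2.7.11a and RSEM 1.3.3 with GRCh38.p14, and the authors deposited 1 expected count per gene and library, not normalized between libraries. RSEM divides reads that fit several genes, so 6.85% and 6.92% of the values in the 2 tables were not whole. The annotation version and strandedness are not given in the sources used here.

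Expected counts were rounded and tested in R 4.3.3 with edgeR 4.0.16 (TMM, filterByExpr by group, quasi-likelihood), with Benjamini-Hochberg adjustment over all genes tested and a threshold of 0.05. The 6 OSC and non-OSC libraries formed one fit and the 9 shRNA libraries another. CPM used TMM-normalized library sizes. The scripts were tested on simulated data, in which changes were larger than those of the genes described here with either hairpin. No change was simulated between shPDK1#1 and shCtrl. Alternatives were DESeq2 1.42.0, library sizes alone, no filter, a minimum of 10 counts in all libraries, a fit of the compared groups alone, a block for the replicate number, and each library left out in turn. Overlaps came from GENCODE 44, and shared sequence was counted as stretches of 75 bases. Python 3.11.15 with pandas 2.3.3 and matplotlib 3.10.9 made the summaries and plots.

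The genes and lists were chosen with earlier results of these data known. Described in full were NCL, NPM1, FBL, NOP56, NOP58, DKC1, POLR1A and UBTF, the 3 largest rises and 3 largest falls among called genes in each comparison with a control, and PDK1. From each pathway list, the largest rise and fall with a mean of at least 10 CPM were named, and MYC always. The single-cell, protein and animal experiments were not analysed here.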

Additional observations from a re-analysis of the deposited data

Results flagged for a closer look

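The effect of the 2 hairpins differed by a direct test (edgeR quasi-likelihood, Benjamini-Hochberg adjustment over all genes) in 9 of the 37 genes. The level with shPDK1#2 was above that with shPDK1#1 by 0.31 on the log2 scale for UTP20, 0.26 for NPM1, 0.22 for FBL, 0.20 for NHP2, 0.19 for POLR1A, 0.18 for NCL, 0.18 for MYBBP1A, 0.18 for UBTF and 0.15 for DKC1. UTP20, NPM1, FBL, NHP2 and NCL kept this call in every alternative. Over all genes tested, 6.5% were higher with shPDK1#2 than with shPDK1#1 and 9.78% were lower.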

How the results depend on the processing

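Of the 37 genes, 35 to 36 were lower in OSCs and 0 higher in every alternative, with medians between -0.86 and -0.81. The count of genes higher with shPDK1#2 was 16 to 19 in the alternatives that kept all libraries and 11 to 19 with a library left out, with 11 without shCtrl replicate 2 or shPDK1#2 replicate 1. DDX21 and NOP2 joined it under a minimum of 10 counts in all libraries, and NOP2 also with only the compared groups. With shPDK1#1 the genes higher numbered 0 to 2 and those lower 0 to 1 with a library left out: 0 higher without shCtrl replicate 1, shCtrl replicate 2 or shPDK1#1 replicate 3, 1 higher without shPDK1#1 replicate 1, and 1 lower without shPDK1#1 replicate 2. All genes called with shPDK1#1 then numbered 245 to 508, namely 270 without shCtrl replicate 1, 282 without shCtrl replicate 2 and 245 without shPDK1#1 replicate 3, against 446.

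Whether replicate numbers pair the samples was not settled. Deviations of same-numbered libraries correlated between -0.054 and 0.095, and those of differently numbered libraries between -0.076 and 0.046. With the replicate block, 36 genes were lower in OSCs, 2 were higher with shPDK1#1 and 17 with shPDK1#2. Over all genes 9420, 507, 3943 and 2522 passed in the 4 comparisons with the block, and 9126, 446, 3812 and 2374 without it.

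Signs changed only in values that had not passed the test and did not pass where they changed, in 43 of 2072 combinations of gene, comparison and setting. With shPDK1#1, NOP14 was -0.0035 with DESeq2, -0.010 with library sizes alone and -0.0015 with only the compared groups. With shPDK1#2, GAR1 was -0.00016 with library sizes alone. The others changed only when a library was left out, and the ranges were as follows. In OSCs DDX10 ranged from -0.040 to 0.059. With shPDK1#1 the ranges were -0.022 to 0.043 for DKC1, -0.11 to 0.030 for GAR1, -0.064 to 0.014 for RRN3, -0.21 to 0.061 for UTP15, -0.10 to 0.017 for UTP20, -0.048 to 0.045 for NOP14, -0.021 to 0.059 for BYSL, -0.011 to 0.083 for BOP1 and -0.012 to 0.036 for NOP2. With shPDK1#2 they were -0.011 to 0.074 for NOP10, -0.052 to 0.047 for GAR1, -0.00014 to 0.15 for RRN3, -0.13 to 0.0020 for WDR74 and -0.0031 to 0.15 for RRP1. Between the hairpins they were -0.0011 to 0.080 for NOP56, -0.030 to 0.042 for NOP58, -0.048 to 0.030 for NOP10, -0.018 to 0.11 for GAR1, -0.030 to 0.063 for GNL3, -0.0037 to 0.045 for DDX21, -0.021 to 0.035 for WDR12, -0.070 to 0.062 for WDR74 and -0.060 to 0.15 for RRS1. Causes were not tested. With 3 libraries a group, shifts of the size of most values with shPDK1#1 were near their standard errors, and a value that did not pass is not shown to be unchanged.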
